A study of Homo sapiens with 2 samples.

Results

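Expression of 10 drug and lipid efflux genes of the ATP-binding cassette (ABC) family was measured in DLD1, an established human cell line from a colorectal adenocarcinoma. They are ABCB1, ABCG2, ABCC1, ABCC2, ABCC3, ABCC4, ABCC5, ABCC10, ABCA1 and ABCG1, taken by gene symbol from 52402 symbols, and all 10 had counts. RNA sequencing had been done on 1 library of control cells, labelled wild type, and on 1 library labelled as a knockout of HERV-R env, the envelope gene of an endogenous retrovirus. Both libraries carry the same protocol: transfection with vectors for Cas9 and a guide RNA, then hygromycin selection of colonies. The sources used here do not give the guide of the control cells, the guides' target positions, or whether either culture grew from 1 colony. The study's title places the comparison among tumour-related properties of such cells.

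ABC transporters use the energy of ATP to move substrates across membranes, and the family is named for its conserved nucleotide-binding domains. ABCB1 (P-glycoprotein), ABCG2 (breast cancer resistance protein) and the multidrug resistance-associated proteins of the C subfamily pump drugs, drug conjugates and natural metabolites out of cells. ABCA1 and ABCG1 export cholesterol and phospholipids to lipoproteins and are classical targets of the liver X receptors (LXR). In gut epithelium ABCB1, ABCG2 and ABCC2 are placed at the apical side, facing the lumen, and ABCC1 and ABCC3 at the basolateral side, facing the blood.

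The control library held 21881122 counts and the knockout-labelled library 16406308. Values are CPM, the counts of a gene per 1000000 counts of its library. The RNA of ERV3-1, the gene of the HERV-R envelope, had 127 counts in control cells and 125 in the other library (5.80 and 7.62 CPM). Its level therefore does not check the label, and every direction below rests on that label. Of 14 colon epithelial markers, 11 had a mean of at least 1 CPM, with EPCAM at 701 and 749.8 CPM; KRT20 and CDX1 were listed at 0 in both libraries. The keratin genes KRT8, KRT18 and KRT19 were 2.21-fold, 2.85-fold and 2.44-fold lower in the knockout-labelled library, and CDX2, an intestinal transcription factor, was higher (99.4 and 298 CPM). Of 10 hepatocyte markers none reached a mean of 1 CPM (summed 0.411 and 0.305 CPM). Summed fibroblast markers (8 genes) had 5.76 and 2.80 CPM, endothelial (6 genes) 9.73 and 6.70 CPM, and blood and immune (8 genes) 38.7 and 66.9 CPM, most of it CORO1A; COL1A2, COL3A1, CDH5, KDR and PTPRC were at 0 in both. The part of these shifts in the results below was not tested. KRT20 and PTPRC each stand on 2 rows of the table, so their 0 may be a counting loss and is not read as absence.

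A member was compared where its mean over both libraries was at least 1 CPM, which held for 8 of the 10, and was taken as at least 2-fold higher or lower by the log2 ratio (knockout-labelled over control) after 1 CPM was added to both. By that rule 1 of 8 was higher (ABCB1), 2 were lower (ABCC3 and ABCG1) and 5 lay between. Among all 12644 genes compared, the same rule took 6.78% as higher and 5.69% as lower. The members' median log2 ratio was 0.10 and that of all genes compared 0.12. With 1 library per group there is no spread between replicates, so no test was possible; the 95% intervals given with ratios are exact counting intervals and cover counting error only. The ratios with intervals are of CPM with nothing added. In bulk RNA, less transcript per cell and fewer cells with the transcript cannot be told apart.

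**Figure D1:**
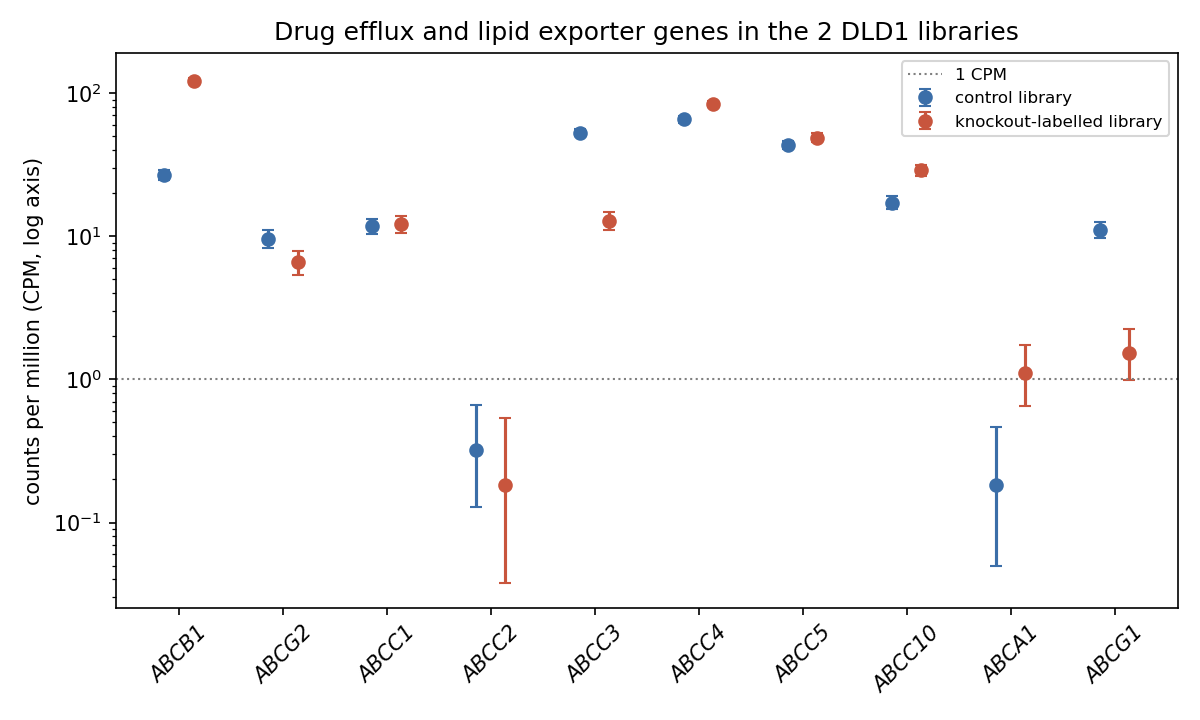
CPM of the 10 genes (log axis) in the control library (blue) and the knockout-labelled library (red), with exact 95% Poisson intervals and 1 library per group. ABCB1 stands at 26.7 and 121 CPM, while ABCC3 and ABCG1 lie lower in the knockout-labelled library and ABCC2 is below 1 CPM in both.

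ABCB1, the broad-range drug pump that exports anthracyclines, taxanes and vinca alkaloids, was the compared member furthest above the control. It had 584 counts in control cells and 1989 in the knockout-labelled library, which is 26.7 and 121 CPM. The ratio was 4.54 (95% counting interval 4.14 to 4.99). Its log2 ratio of 2.14 had rank 20 from the highest of all genes compared. The ABCB1 gene is on chromosome 7, minus strand (87503017 to 87713295 in GRCh38).

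ABCB1 has 2 transcription starts in the RefSeq promoter table (GRCh38.p14), 112411 bases apart, and the counts per gene do not tell which was used. The 250 bases before each are shown because ABCB1 is the member that was at least 2-fold higher. Capitals mark a match to any of 6 motifs searched on both strands. These were the CCAAT box (CCAAT), the GC box (GGGCGG), the E-box (CACGTG), the AP-1 site (TGANTCA), the core of the antioxidant element (TGACNNNGC) and an LXR repeat (GGTNA, then 5 free bases, then GGTCA).
ABCB1 upstream start, chr7:87713296-87713545, minus strand: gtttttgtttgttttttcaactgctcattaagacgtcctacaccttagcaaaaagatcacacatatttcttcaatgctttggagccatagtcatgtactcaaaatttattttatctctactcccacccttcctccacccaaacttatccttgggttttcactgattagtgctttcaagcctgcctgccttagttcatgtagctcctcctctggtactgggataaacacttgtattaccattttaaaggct
ABCB1 downstream start, chr7:87600885-87601134, minus strand: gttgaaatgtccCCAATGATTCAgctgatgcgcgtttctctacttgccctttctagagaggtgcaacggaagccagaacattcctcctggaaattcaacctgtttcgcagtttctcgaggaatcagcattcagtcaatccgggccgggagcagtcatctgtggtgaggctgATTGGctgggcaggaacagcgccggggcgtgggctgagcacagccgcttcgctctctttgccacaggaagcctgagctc

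The upstream window held none of the 6 motifs and had a GC content of 39.2%. The downstream window (GC content 55.6%) held a CCAAT box in reverse, ATTGG, 79 to 75 bases before the start. It also held a CCAAT at 238 to 234 bases that shares 1 base with an AP-1 match, TGATTCA, at 234 to 228 bases. Of 35116 promoter windows of the same length, 32.0% held a CCAAT box and 6.57% an AP-1 site. A match describes letters, not binding.

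ABCG2, an apical half-transporter that exports topoisomerase inhibitors and urate, did not share the direction of ABCB1. It had 210 counts in control cells and 108 in the knockout-labelled library (9.60 and 6.58 CPM). The ratio was 0.686 (0.539 to 0.869), which did not reach the 2-fold rule. Both libraries thus had more ABCB1 than ABCG2 RNA per length of transcript, 4.60 against 1.90 CPM per kb of exon sequence in control cells and 20.9 against 1.31 in the knockout-labelled library. Exon lengths are those of GENCODE 29, all exons of a gene merged, since the sources used here do not name the authors' annotation.

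Within the C subfamily, ABCC3 was the member past the rule. ABCC3 (MRP3) is a basolateral exporter of glucuronides and bile salts. Its counts were 1160 in control cells and 210 in the knockout-labelled library, or 53.0 and 12.8 CPM. It was 4.14-fold lower (3.57 to 4.82), with a log2 ratio of -1.97 that places it at rank 119 from the lowest of all genes compared. ABCC3 lies on chromosome 17 (50634881 to 50692253, plus strand).

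The other measured C subfamily members stayed within 2-fold of the control. ABCC10 (MRP7), which confers taxane resistance, had 377 and 472 counts (17.2 and 28.8 CPM; ratio 1.67, 1.46 to 1.92). It was the nearest to the rule on the higher side, at a log2 ratio of 0.71. ABCC4 (MRP4), an exporter of cyclic nucleotides and prostaglandins, had 1435 and 1378 counts, which is 65.6 and 84.0 CPM (ratio 1.28, 1.19 to 1.38). ABCC5 (MRP5), which also carries cyclic nucleotides, had 956 and 800 counts (43.7 and 48.8 CPM; ratio 1.12, 1.01 to 1.23). The scalings that centre the ratios of all genes lower the log2 ratios of well-measured genes by about 0.12 to 0.16, so an excess as small as that of ABCC5 (log2 ratio 0.16, and 0.00 with the median of gene ratios) depends on the scaling.

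ABCC1 (MRP1), the glutathione-dependent exporter of drug conjugates, differed by less than its counting error. Its symbol stands on 2 rows, with 185 and 73 counts in control cells and 146 and 53 in the knockout-labelled library. Summed, these gave 11.8 and 12.1 CPM (ratio 1.03, 0.851 to 1.24). Reads that fit both copies may be lost or split, so the level of ABCC1 is uncertain; its log2 ratio of 0.04 turned negative (-0.07 to -0.11) with the centring scalings.

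ABCC2 (MRP2), the apical exporter of bilirubin glucuronide and other conjugates, was barely detected. It had 7 counts in control cells and 3 in the knockout-labelled library, or 0.320 and 0.183 CPM. The ratio of 0.572 carries an interval from 0.0954 to 2.50, so no difference was detectable at this depth. Summed over the 6 C subfamily members, the level was 192 CPM in control cells and 187 in the knockout-labelled library (ratio 0.974, 0.929 to 1.02). With library totals as the divisor, the lower ABCC3 and the higher ABCC4, ABCC5 and ABCC10 thus left nearly the same sum. The sum was not recomputed with the centring scalings. Their log2 shifts of about -0.12 to -0.16 would place it lower in the knockout-labelled library.

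The 2 cholesterol exporters stood on opposite sides of the control, ABCA1 at very low counts. ABCG1, which passes sterols to high-density lipoprotein, had 243 counts in control cells and 25 in the knockout-labelled library (11.1 and 1.52 CPM). It was 7.29-fold lower (4.82 to 11.5), and its log2 ratio of -2.26 had rank 74 from the lowest of all genes compared. ABCA1, which loads lipid onto apolipoprotein A-I, had 4 counts in control cells and 18 in the knockout-labelled library (0.183 and 1.10 CPM). The ratio was 6.0, but its interval ran from 1.98 to 24.4, and its mean of 0.640 CPM kept it out of the comparison. The summed level of both was 11.3 CPM in control cells and 2.62 in the knockout-labelled library.

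ABCA1 has 1 window in the promoter table, shown because it holds an LXR repeat, with the same 6 motifs in capitals.
ABCA1, chr9:104928156-104928405, minus strand: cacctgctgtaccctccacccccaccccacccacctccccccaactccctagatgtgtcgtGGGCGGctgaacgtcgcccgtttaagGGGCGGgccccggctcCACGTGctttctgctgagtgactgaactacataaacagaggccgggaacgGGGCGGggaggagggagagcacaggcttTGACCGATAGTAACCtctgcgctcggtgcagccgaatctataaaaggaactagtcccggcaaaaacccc

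The LXR repeat of ABCA1 lies on the other strand, 69 to 55 bases before the start, and 0.216% of all windows held one. The window also held 3 GC boxes and 1 E-box, which 42.6% and 6.34% of all windows held. Promoter windows were matched for 7 of the 10 members, 13 windows in all; ABCC1, ABCC3 and ABCG1 are named without one. Of these 13 windows, 1 held an LXR repeat and 2 the antioxidant core (ABCC4 and ABCC10, against 10.9% of all windows).

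Levels of different genes were ordered per kb of exon sequence. In the control the order ran from ABCC4 (7.59 CPM per kb) through ABCC3 (5.51), ABCB1 (4.60) and ABCC5 (3.82) to ABCC10 (2.13). ABCG2 (1.90), ABCG1 (1.81) and ABCC1 (1.56) followed, and from ABCC10 down to ABCC1 each neighbour in this order overlapped the next within counting intervals. ABCC2 and ABCA1 were last, at 0.0408 and 0.0161.

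In the knockout-labelled library ABCB1 led at 20.9 CPM per kb, above ABCC4 (9.73), ABCC5 (4.26) and ABCC10 (3.56). ABCC1 (1.60), ABCC3 (1.33) and ABCG2 (1.31) formed a group in which neighbours overlapped. ABCG1 (0.249) stood below them, and ABCA1 (0.0967) and ABCC2 (0.0233) were again last, with overlapping intervals. ABCB1 made up 15.9% of the 10 members' summed length-scaled level in control cells and 48.5% in the knockout-labelled library, while ABCC3 went from 19.0% to 3.09%. In plain CPM the sum of the 10 was 239 and 317 (ratio 1.33, 1.28 to 1.38), and without ABCB1 it was 213 and 196 (ratio 0.922, 0.881 to 0.964). The higher sum was thus carried by ABCB1.

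**Figure D2:**
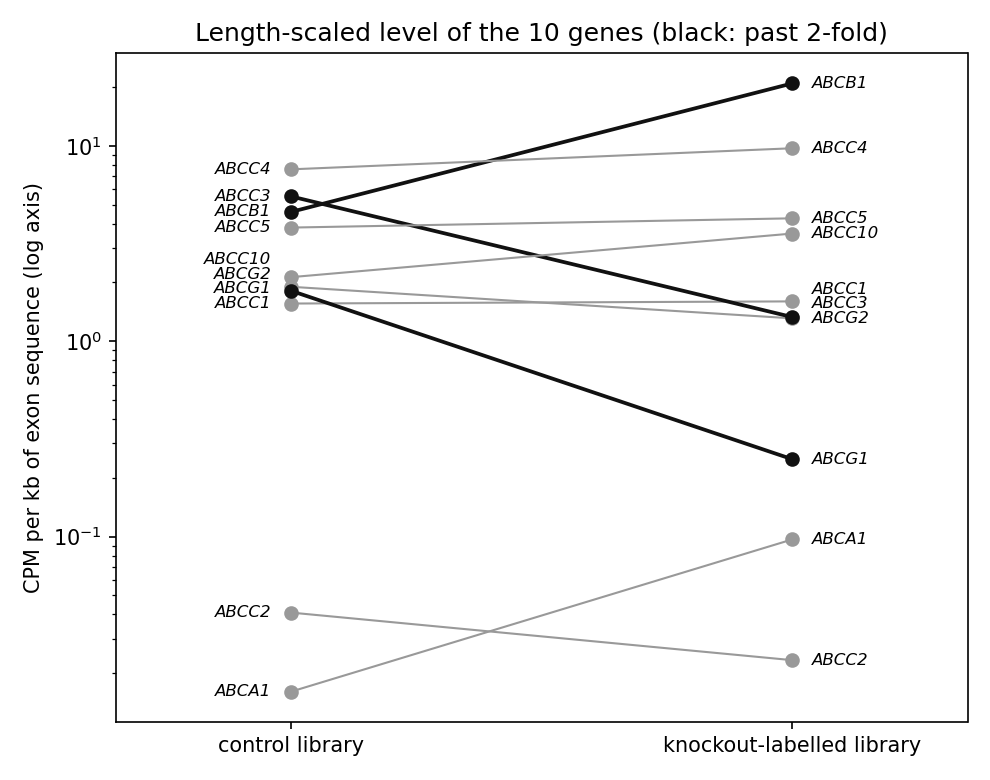
Level of each gene per kb of merged exon sequence (CPM per kb, log axis) in both libraries, 1 library per group; black lines mark the 3 genes past 2-fold and labels are spread to stay legible. ABCB1 moves from the third place (4.60) to the highest (20.9), and ABCC3 from the second (5.51) to 1.33.

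The rest of the ABC family was set beside the members. Over all genes compared, the share past the rule was 6.78% higher and 5.69% lower, against which this list and those below are to be read. Of 38 other ABC genes, 16 had a mean of at least 1 CPM; 3 were at least 2-fold higher, 1 was lower and 12 lay between, with a median log2 ratio of 0.29. The chloride channel gene CFTR, a C subfamily member that conducts ions, had 1081 and 3267 counts (49.4 and 199 CPM; ratio 4.03, 3.76 to 4.32). ABCC9, the sulfonylurea receptor subunit of potassium channels, had 45 and 120 counts (2.06 and 7.31 CPM; ratio 3.56, 2.51 to 5.13). ABCF2, a soluble member without a membrane domain, had 91.0 and 195 CPM (ratio 2.14, 2.02 to 2.26), and lay within the rule with each centring scaling. ABCA3, a phospholipid transporter, had 69 and 16 counts and was 3.23-fold lower (3.15 against 0.975 CPM).

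ABCD3, a peroxisomal fatty acid transporter of the D subfamily, lay close to the control, with 187 and 189 CPM (ratio 1.01, 0.965 to 1.06). The peptide transporter genes TAP1 and TAP2 and the soluble ABCF1 were listed at 0 in both libraries. These stand on 8, 8 and 7 rows of the table, so a 0 there may be a counting loss and is not read as absence. ABCB4, the phospholipid exporter gene next to ABCB1, had 24 and 14 counts (ratio 0.778, 0.372 to 1.57).

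**Figure D3:**
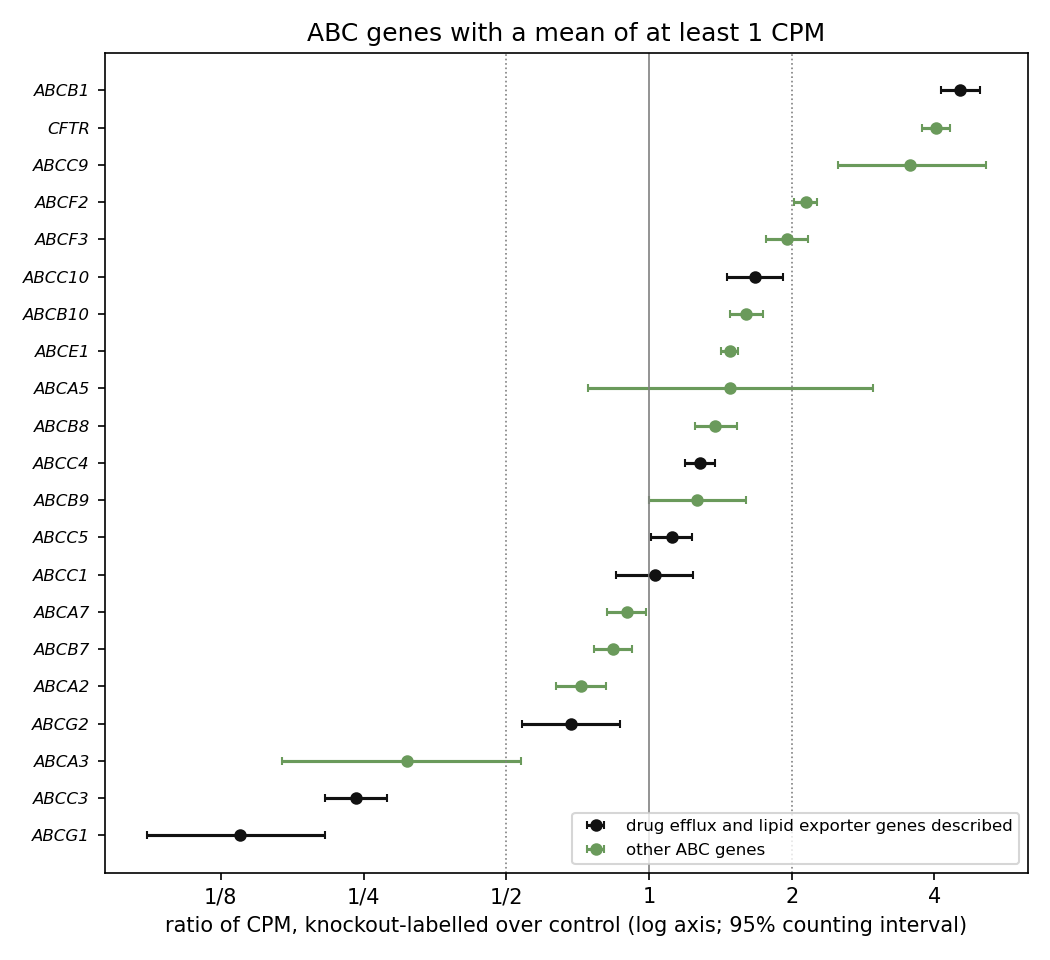
Ratio of CPM, knockout-labelled over control (log axis), for the compared ABC genes outside the D subfamily, with exact 95% counting intervals; black points are members described here, green points other ABC genes, and dotted lines mark 2-fold. ABCB1 (4.54) is at the top beside CFTR (4.03), and ABCG1 and ABCC3 are at the bottom.

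Chromosomal neighbours were examined for the 5 nearest protein-coding genes on each side of every member, a choice made with the members' values known. Of 100 neighbours 56 had a mean of at least 1 CPM, of which 1 was at least 2-fold higher and 5 lower. The same rule took 6.78% of all genes compared as higher and 5.69% as lower. Of the lower ones, KLHL24 lies near ABCC5 (51.0 and 12.7 CPM), and the other 4 stood side by side next to ABCG1 on chromosome 21. These 4 are the trefoil peptide genes TFF3 (50.9 and 16.8 CPM, 3.02-fold lower), TFF2 (5.99 and 0.244 CPM, 24.6-fold lower, from 131 and 4 counts) and TFF1 (16.9 and 5.30 CPM, 3.18-fold lower), and the serine protease gene TMPRSS3 (22.5 and 7.86 CPM, 2.86-fold lower). On the other side of ABCG1 the 4 compared genes had log2 ratios from -0.30 to 0.30.

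Around ABCB1, 1 of 8 compared neighbours passed the rule, RUNDC3B. DMTF1, TMEM243 and SLC25A40 had ratios of 0.892, 0.952 and 0.976. Ratios above 1 were those of CROT (1.48, 1.01 to 2.18), DBF4 (1.31, 1.22 to 1.40), ADAM22 (1.22, 1.02 to 1.46) and SRI (1.11, 1.02 to 1.21), which encodes the calcium binder sorcin. RUNDC3B, which overlaps ABCB1 on the opposite strand without sharing exon bases, had 16 and 45 counts (0.731 and 2.74 CPM; ratio 3.75, 2.08 to 7.11). The sources used here do not say whether counting used strand. Without it, a read from an intron of either gene that falls in an exon of the other may be counted for the other. This was not tested. Beside ABCC3 none of 6 compared neighbours passed the rule, with log2 ratios from -0.90 (SPATA20) to 0.75 (LUC7L3).

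**Figure D4:**
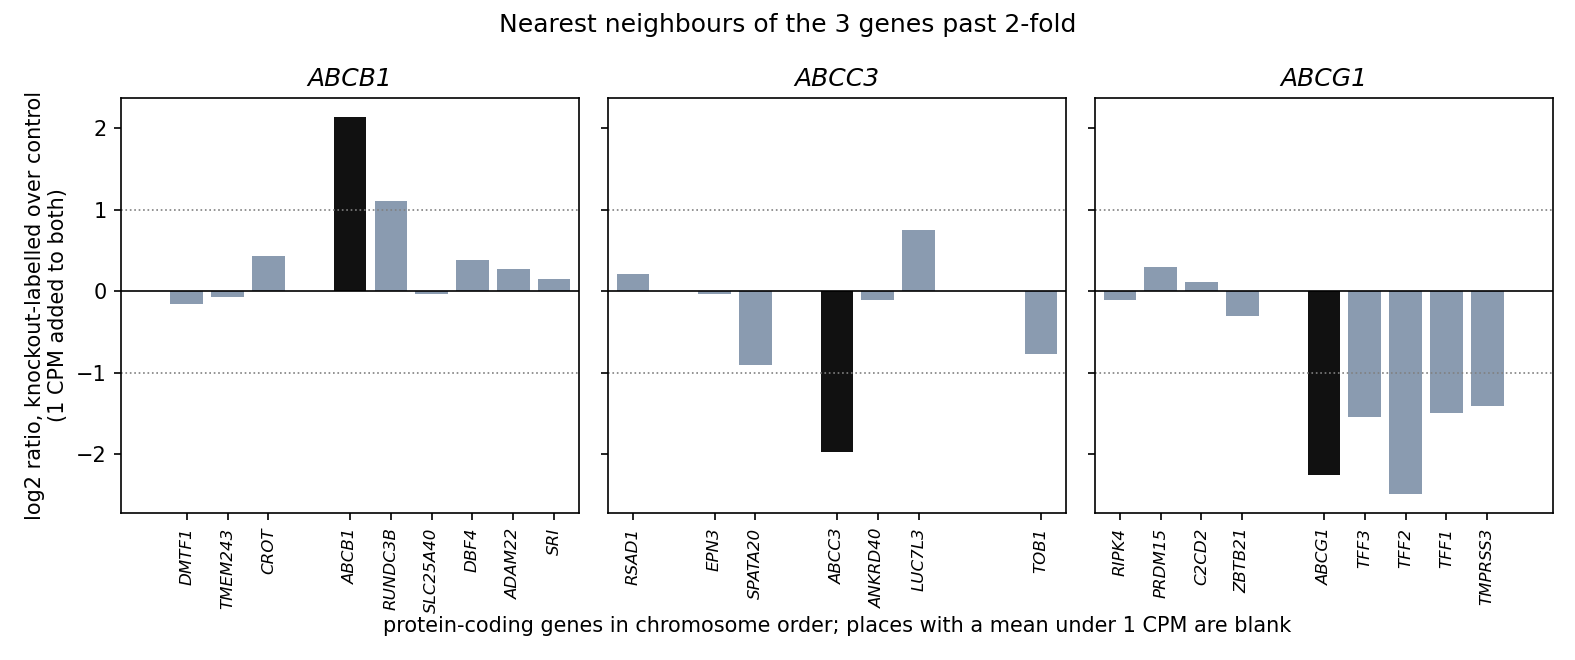
Log2 ratio (1 CPM added to both libraries) of ABCB1, ABCC3 and ABCG1 (black) and their compared protein-coding neighbours (grey-blue) in chromosome order, 1 library per group; dotted lines mark 2-fold. The 4 genes to the right of ABCG1, TFF3 to TMPRSS3, are all past 2-fold lower, whereas ABCB1 has 1 such neighbour, RUNDC3B, on the higher side.

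None of the compared transcription factors known to regulate efflux genes passed the rule. Of 20 listed, 17 were compared and 0 were at least 2-fold higher or lower, with a median log2 ratio of -0.08. The most abundant were YBX1, a Y-box factor, at 1338 and 1482 CPM, and AHR, the dioxin receptor that induces ABCG2, at 353 and 472 CPM. NFE2L2, which encodes NRF2, an inducer of C subfamily exporters, had 161 and 197 CPM, and its inhibitor KEAP1 91.9 and 168 CPM (ratio 1.83). NR1I2, which encodes the pregnane X receptor that induces ABCB1 in gut and liver, was listed at 0 in both libraries. A count of 0 allows up to 3 counts, or 0.137 and 0.183 CPM in the 2 libraries.

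The LXR receptors and their targets did not all follow ABCG1. NR1H2 (LXR beta) had 37.0 and 26.5 CPM, and NR1H3 (LXR alpha) 11.0 and 9.39 CPM. Of 20 LXR target and cholesterol handling genes, 13 were compared and 2 were higher (median log2 ratio 0.07). The higher ones were SREBF1, the sterol regulatory factor (65.1 and 141 CPM, ratio 2.16), and PLTP, a phospholipid transfer protein (18 and 46 counts, ratio 3.41). Both lay within the rule with each centring scaling, where 0 of the list were higher.

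Enzymes that make the conjugates exported by the C subfamily were mostly within 2-fold. Of 37 listed, 21 were compared, 1 was higher, 2 were lower and 18 lay between, with a median log2 ratio of -0.24. The glucuronosyltransferase genes UGT1A1 and UGT1A6 went opposite ways, from 18.4 to 54.6 CPM (ratio 2.97) and from 51.0 to 22.7 CPM (2.25-fold lower). They share their last exons, so the split of reads between them is uncertain, and the summed level of the 8 listed glucuronosyltransferases was 69.4 and 77.3 CPM. SULT2B1, a sterol sulfotransferase, was 2.43-fold lower (28.6 against 11.8 CPM). The 4 glutathione synthesis and reduction genes and the 11 compared glutathione transferases included 0 past the rule, with GSTP1 at 615 and 601 CPM.

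Proteins that hold or move transporters at the apical membrane were also examined. Of 10 listed, 9 were compared, 0 were higher, 2 were lower and 7 lay between, with a median log2 ratio of -0.38. The lower ones were CAV1, the main protein of caveolae (18.1 and 6.10 CPM, 2.97-fold lower), and PIM1, a kinase that phosphorylates ABCG2 (172 and 79.9 CPM, 2.15-fold lower). The membrane linkers EZR (503 and 387 CPM) and RDX (5471 and 2609 counts, 1.57-fold lower), and the scaffold SLC9A3R1 (93.7 and 112 CPM), did not reach the rule.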

How the data were processed

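RNA was measured in 1 control and 1 knockout-labelled DLD1 library. Each table holds raw counts per gene row as deposited by the authors, unnormalized; reads were aligned with TopHat to GRCh38 per the submitters' processing notes. The TopHat version, counting program, annotation, strand setting and filters were not given in the sources used here. Rows of a symbol were summed (58173 rows, 52402 symbols; 2687 symbols stand on several rows), scaled by library total, and compared with a pseudocount of 1 CPM, a minimum mean of 1 CPM and a 2-fold size rule. Ratios carry exact 95% intervals (Clopper-Pearson, given the sum of both counts) and levels exact Poisson intervals. Both cover counting error only, and PCR duplicates would make them too narrow. With 1 library per group no test could be run.

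All members were named; of each related list the genes past the rule were named, at most 6, and where none passed the 2 most abundant. Others named were chosen after their values were seen. Members and lists were chosen with earlier results of these data known. The calculation was checked on simulated counts. Gene positions, neighbours and promoters come from RefSeq (GRCh38.p14) and exon lengths from GENCODE 29. The members' log2 ratios and the counts of members and of related list genes past the rule were recomputed where the setting applies, and the marker values, neighbours, sums and order per kb were not. The settings were a pseudocount of 0.1 or 5 CPM, the filter left out or raised to 5 CPM, a 1.5-fold or 3-fold rule, TMM (edgeR 4.0.16), upper quartile or median-of-ratios scaling, totals without ribosomal RNA, and single-row symbols only. Python 3.11.15, SciPy 1.17.1 and R 4.3.3 were used. Some results for genes of the related lists are not reported here.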

Additional observations from a re-analysis of the deposited data

How the results depend on the processing

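Over the 11 alternatives ABCB1 was the higher member and ABCC3 and ABCG1 the lower ones in each, and the number of higher members changed only with the 1.5-fold rule, to 2, as ABCC10 joined. Log2 ratios ran from 1.99 to 2.18 for ABCB1, from -2.12 to -1.70 for ABCC3 and from -2.79 to -1.30 for ABCG1. Centring scalings shift log2 ratios by about -0.12 (TMM), -0.14 (upper quartile) and -0.16 (median of gene ratios). They move the share of higher genes among all genes past the rule from 54.4% to 40.6%, 38.5% and 36.5%; over all genes compared, the 1.5-fold rule took 2567 as higher and 1674 as lower, the 3-fold rule 118 and 229, and a pseudocount of 5 CPM 426 and 371, against 857 and 719; with TMM 4.75% of genes compared were higher and 6.95% lower. With these scalings ABCC4 stood at 0.20 to 0.23. ABCA1 depended on the pseudocount, from 0.23 with 5 CPM to 2.08 with 0.1 CPM. Of 154 counts for related lists under alternatives, 34 moved by more than 1.5 times or to or from 0. Those counts lay between 0 and 5. ABCA3 and ABCC9 lost the rule with a pseudocount of 5. No paired analysis was possible because there was 1 library per group; for the same reason no library could be left out. With 7 and 3 counts, ABCC2 was limited by depth.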

Other observations

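Genes of drug entry and drug metabolism, which act before efflux, were examined beside the exporters. Of 30 uptake carriers 8 were compared, 0 were at least 2-fold higher, 1 was lower and 7 lay between (median log2 ratio 0.22). The lower one was SLC22A18, an organic cation carrier of the imprinted region of chromosome 11 (281 and 87 counts, 2.42-fold lower); its symbol stands on 2 rows, and with a pseudocount of 5 CPM it was within the rule. The nucleoside carrier SLC29A1, which takes up nucleoside drugs, had 92.6 and 101 CPM. SLCO1B3, an organic anion carrier of liver that many colon cancers express, had 56.6 and 32.2 CPM (ratio 0.569, 0.513 to 0.630).

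Of 19 other drug handling genes 15 were compared, 3 were higher, 1 was lower and 11 lay between (median log2 ratio 0.28). The 3 higher ones act on pyrimidines. TYMS, thymidylate synthase and the target of fluorouracil, had 52.3 and 120.3 CPM (ratio 2.30, 2.14 to 2.48). UMPS, which makes uridine monophosphate and activates fluorouracil, had 38.4 and 80.9 CPM (ratio 2.10, 1.93 to 2.30). TYMP, thymidine phosphorylase, had 14 and 42 counts (ratio 4.0, 2.14 to 7.93). With TMM, upper quartile or median-of-ratios scaling UMPS fell short of the rule, so 2 were higher and 2 lower, as MVP, the major vault protein gene (94.5 and 49.1 CPM), joined CYP2S1. CYP2S1, a cytochrome P450, was 2.08-fold lower (69.9 against 33.6 CPM). With a pseudocount of 5 CPM, CYP2S1, UMPS and TYMP were all within the rule, which left 1 higher (TYMS) and 0 lower.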
